A study of Mus musculus with 103 samples.

Results

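The U1 small nuclear ribonucleoprotein (U1 snRNP) and the machinery that cleaves and polyadenylates mRNA were described through 36 genes, taken by symbol from a list of proteins that act in the choice of polyadenylation sites. All 36 were found with 1 entry each, among 45798 entries in a table of bulk libraries and 45797 entries in a table of single-cell wells. All 36 passed the filter of the bulk comparisons, a mean of at least 1 TPM over the 8 libraries. TPM, the unit of both tables, is a length-scaled share of a library. The genes encode 3 U1-specific proteins, 7 Sm core proteins, 3 LUC7-like proteins that associate with U1, 6 subunits of the cleavage and polyadenylation specificity factor (CPSF), 3 of cleavage factor I (CFIm), 4 of the cleavage stimulation factor (CstF), 2 of cleavage factor II (CFIIm), 2 scaffold proteins or cofactors, 2 poly(A) polymerases, 2 poly(A)-binding proteins and 2 other RNA-binding proteins.

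The samples were muscle stem cells of untreated C57BL/6 mice, collected to ask how these cells change with age. Bulk libraries came from 3 young, 2 middle-aged (12 and 13 months) and 3 old (24 months) mice. The young bulk mice are given as 3 months in one label and 2 months in another. Single-cell wells came from 1 old mouse (24 months, 31 wells) and 1 young mouse (3 months, 64 wells). For all groups the labels describe culture in medium with fibroblast growth factor 2, without stating whether RNA was taken before or after it. The series' design text has them as myoblasts. Neither a sort gate nor surface markers are given.

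U1 snRNP pairs with 5′ splice sites through its RNA, and it also keeps nascent transcripts from being cut at poly(A) signals inside introns. At the end of a gene, CPSF reads the hexamer AAUAAA, CFIm binds UGUA upstream of it and CstF binds a GU-rich stretch downstream. Cleavage and tail synthesis follow. In mouse muscle stem cells, U1 has been linked to the poly(A) site used in Pax3, and in human cells a long CD47 3′ UTR binds ELAVL1, which brings SET to the protein made there. Both tables give 1 value per gene, so the use of one poly(A) site against another was not measured.

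The bulk libraries varied within an age. Pairs of the same age correlated at r = 0.546 to 0.749 across genes, which are not independent replicates. Between 12849 and 17114 genes reached 1 TPM, and mitochondrially encoded transcripts took 32.67% to 46.50% of TPM. Muscle stem cell markers were present at every age, with summed levels of 10 genes of 1145 to 1741 TPM in old libraries and 1532 to 1647 TPM in young libraries. Of the 10, 4 were higher and 6 lower in old, and 1 was higher and 1 lower without overlap, beside 5.85% and 4.16% of all genes. Pax7, the factor that defines these cells, was at 219, 246 and 185 TPM in old libraries and at 308, 316 and 248 TPM in young libraries, and the ages did not overlap (log2 difference -0.42, adjusted p = 0.839, limma). Sdc4 went the other way without overlap, at 375.67, 354.41 and 343.13 TPM in old libraries and at 334.66, 251.66 and 228.15 TPM in young libraries. Markers of other cells differed too. The 10 Schwann cell genes summed to 428 to 1342 TPM in old libraries and 84.7 to 163 TPM in young libraries, and all 10 had a higher mean log2 level in old, with 0 at an adjusted p under 0.05 and 7 at an unadjusted p under 0.05 (limma), beside 3.72% of all genes higher. The 6 tenocyte genes tested of 8 listed were also all higher in old, and the 8 together summed to 68.7 to 88.0 TPM in old libraries and 15.2 to 29.1 TPM in young libraries. The 7 endothelial genes summed to 25.4 to 35.9 TPM in old libraries and 11.63 to 15.04 TPM in young libraries, with 3 of the 7 at 0 in all 8 libraries. Of the 4 tested, 3 were higher and 1 lower in old. The sums of fibroblast, smooth muscle and pericyte, macrophage, lymphocyte, muscle fibre and red blood cell genes overlapped between old and young. Single genes of these lists still differed without overlap. Of 6 smooth muscle and pericyte genes, 3 were higher and 1 lower in this way, and of 8 fibroblast genes tested, 2 were higher and 1 lower. Of 3 macrophage genes tested 1 was higher, and of 5 red blood cell genes 1 was lower. The lymphocyte and muscle fibre lists had 0. The part of all these cells in the values below was not tested. In bulk RNA, fewer cells of a type and less RNA per cell cannot be told apart.

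The 36 transcripts spanned a wide range of levels. Pabpc1, the cytoplasmic poly(A)-binding protein, was the most abundant, with a mean over the 8 libraries of 811 TPM, and it made up 33.6% of the summed means of all 36. It was followed by Luc7l2 with 386 TPM and Luc7l3 with 186 TPM, which encode LUC7-like proteins that touch the 5′ splice site. Next came Rbbp6, a ubiquitin ligase of the cleavage complex, with 148 TPM, and Papola, the main nuclear poly(A) polymerase, with 129 TPM. These 5 held 68.8% of the summed means, and they were the only 5 members with a mean of 100 TPM or more. Another 18 members lay between 10 and 100 TPM, and 13 lay under 10 TPM, the lowest being Cpsf1, the largest CPSF subunit, with 4.22 TPM. Along this order, only 3 of the 35 pairs of neighbours stood in the same order in all 8 libraries. These were Pabpc1 above Luc7l2, Luc7l2 above Luc7l3, and Papola above Hnrnpc, so the order of most neighbours was within the spread of the libraries.

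**Figure D1:**
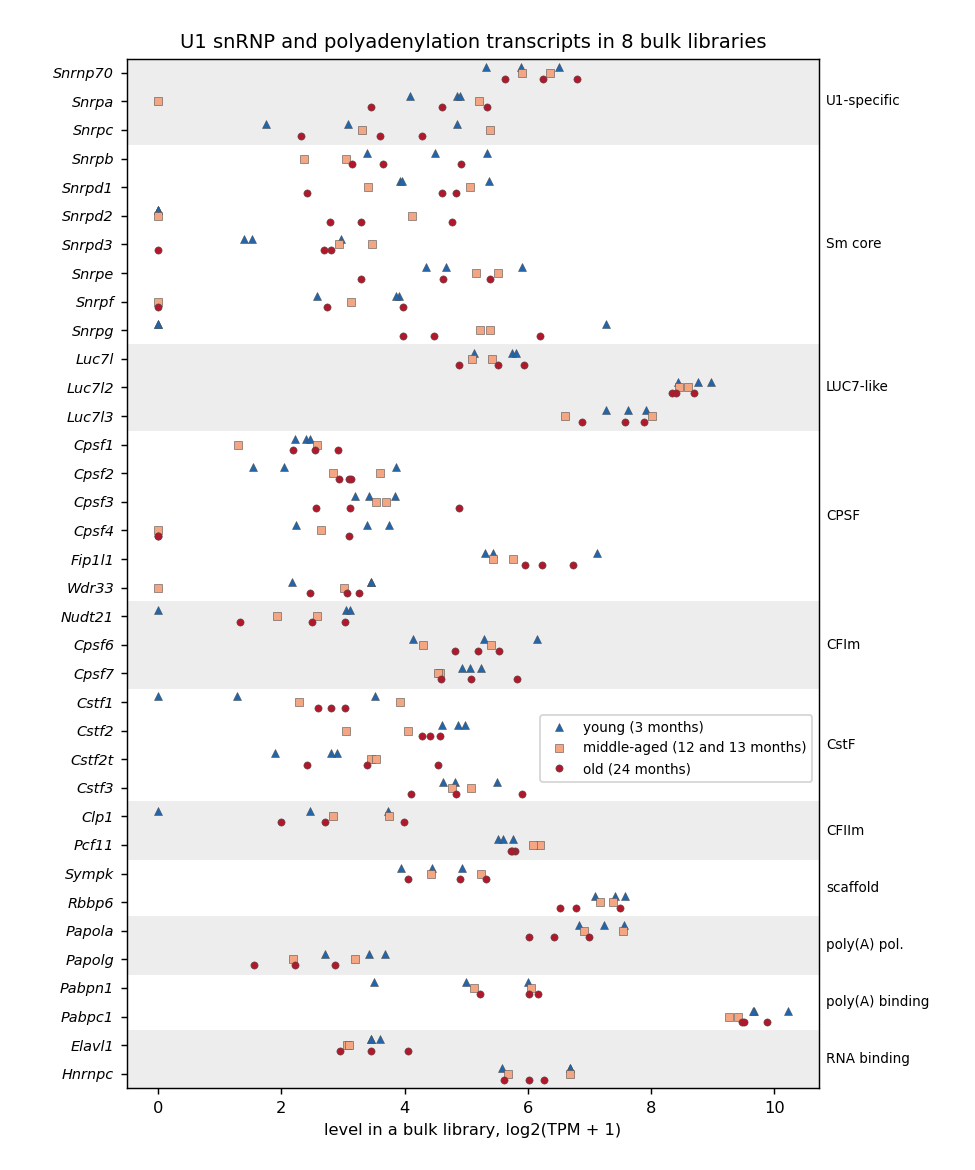
Level of each of the 36 transcripts, as log2(TPM + 1) on the horizontal axis, in bulk libraries of young (3), middle-aged (2) and old (3) mice; each point is 1 library and shading separates the roles. Pabpc1 and Luc7l2 stand apart at the right, 10 members have at least 1 library at 0, and the ages overlap for most members.

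At least 1 library listed 10 of the members at 0, which is 27.8% of the 36. Of all genes tested the share was 66.1%, and of genes with a mean in the members' range it was 43.6%. Where counts are not given, a 0 can be a failed estimate. The 10 were Snrpa, Snrpd2, Snrpd3, Snrpf, Snrpg, Cpsf4, Wdr33, Nudt21, Cstf1 and Clp1. The spread within an age, as SD of log2(TPM + 1), had a median of 0.76 over the members, beside 1.16 over all genes tested and 0.96 over genes in the members' range. It was smallest for Pcf11 (0.09), Luc7l2 (0.21) and Pabpc1 (0.25), and largest for Snrpg (2.75). Across the 36 members the spread fell with transcript length (Spearman's rho = -0.55) and with mean level (rho = -0.54), while length and level had a rho of -0.00. These points share the same 8 libraries and are given as a description.

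In old against young libraries, none of the 36 members passed the threshold of an adjusted p under 0.05 in the limma fit. The same held for all 22492 genes tested (0% called). At an unadjusted p under 0.05, the fit held 1 member higher in old and 0 lower, beside 3.72% of all genes higher and 2.17% lower. An exact permutation test of 3 against 3 libraries cannot go below 0.1. The members' log2 differences had a median of -0.03, beside 0.00 over all genes, with 16 members higher and 20 lower in old, beside 49.6% of all genes above 0 and 45.8% below 0. For the 26 members above 0 in all libraries the median was also -0.03. Their 95% intervals reached 0.57 (Pabpc1) to 2.01 (Snrpc) to either side of the estimate, with a median of 1.15. The intervals of Pabpc1, Luc7l2 and Pcf11 lay within 1 log2 unit of 0, and those of the others among the 26 held a 2-fold difference in at least 1 direction.

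**Figure D2:**
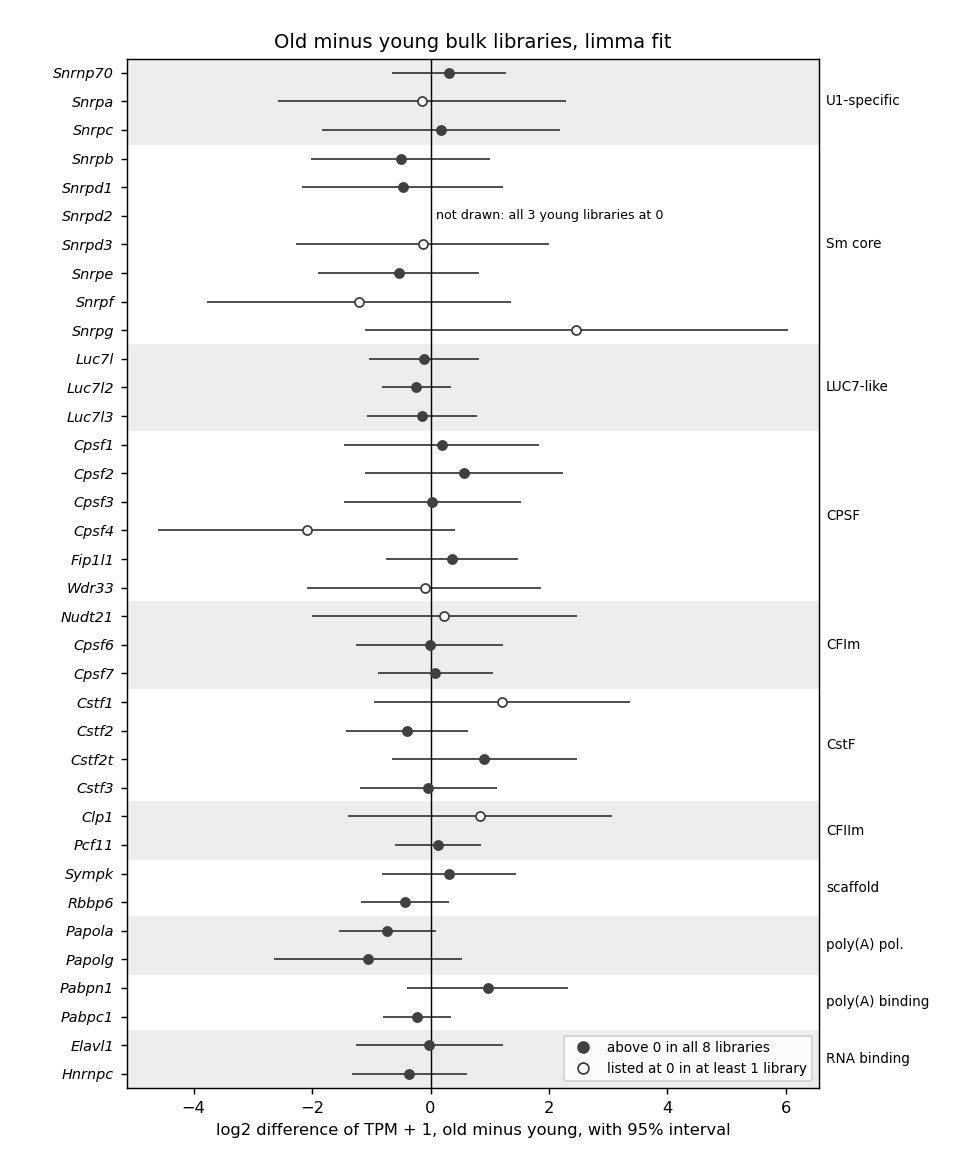
Log2 difference of TPM + 1 between the 3 old and 3 young bulk libraries for 35 members, with 95% intervals from the limma fit over all 8 libraries; open symbols mark members listed at 0 in any library, and Snrpd2 is not drawn because all young libraries were at 0. All 35 intervals include 0, and those of Pabpc1, Luc7l2 and Pcf11 are the narrowest around it.

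U1 RNA itself, the part that pairs with the splice site, was almost unseen. Its first 30 bases are shown because they hold the stretch that pairs with 5′ splice sites (capitals, the first 11 bases), here from the gene Rnu1b1 at chr3:96360088-96360117, minus strand, GRCm38, from the GENCODE vM21 transcripts, with T for U.
Rnu1b1: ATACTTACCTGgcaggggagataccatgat
The annotation held 46 genes with this 5′ end, with a median length of 164 bases, and all 46 were in both tables. Only 5 of their 368 bulk values were above 0. Old library 2 had 65.88 TPM for Rnu1b1, the same for Rnu1b2, whose sequence is identical, and 135.38 TPM for Gm24305. Young library 1 had 329.56 TPM for Gm23330 and 659.13 TPM for Gm25818. In wells, 6 of the 46 genes were above 0 anywhere. At these levels the amount of U1 RNA could not be compared between ages.

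Of the 3 U1-specific proteins, Snrnp70 and Snrpa bind stem loops of the RNA, and Snrpc steadies its pairing with the splice site. Snrnp70 was at 74.95, 48.66 and 109.88 TPM in old libraries and at 90.20, 58.28 and 38.97 TPM in young libraries, and the middle-aged libraries had 81.00 and 59.23 TPM. All ages overlapped, and the log2 difference of old minus young was 0.32 (SE 0.44, adjusted p = 0.898, limma). Snrpa was at 10.02, 23.27 and 39.61 TPM in old libraries and at 27.68, 28.89 and 15.99 TPM in young libraries. Middle-aged library 1 had 35.97 TPM and middle-aged library 2 was listed at 0. The ages overlapped, with a log2 difference of -0.14 (SE 1.1, adjusted p = 1, limma). Snrpc was at 11.15, 18.54 and 3.96 TPM in old libraries and at 2.37, 27.73 and 7.49 TPM in young libraries. The middle-aged libraries had 41.01 and 8.87 TPM. The young range held all the old values, and the log2 difference was 0.17 (SE 0.91, adjusted p = 1, limma). Summed over the 3 genes, the level was 113 ± 34.9 TPM in old and 99.2 ± 31.9 TPM in young libraries (SD, n = 3 each).

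The Sm proteins form the ring around the RNA of U1 and of other spliceosomal snRNPs. Snrpd2, at chr7:19149722-19153542 (GRCm38), was the one member with an unadjusted limma p under 0.05 in old against young. It was at 8.84, 5.93 and 26.32 TPM in old libraries and listed at 0 in all 3 young libraries, so no fold is given. Middle-aged library 1 had 16.31 TPM and middle-aged library 2 was also at 0. The old and young groups did not overlap, while the adjusted p was 0.699 (limma), and the exact permutation p, two-sided, was 0.1, its lowest possible value here. The transcript was present in young cells in the other format: 24 of 64 young wells had it at 1 TPM or more, with a mean of 41.4 TPM over all young wells. Of its processed pseudogenes, Gm5449, which shares 29.4% of its 31-base stretches with Snrpd2, was listed at 0 in all 8 bulk libraries and found in 11 of 64 young wells. Gm10120, which shares 65.7%, had no entry under its gene ID in either table, so its level is unknown. With all members counted, old and young did not overlap for 1 member higher in old (Snrpd2) and 1 lower (Cstf2). Over all genes tested, 5.85% were higher without overlap and 4.16% lower.

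The other 6 Sm genes overlapped between old and young, with Snrpg above and Snrpb, Snrpd1, Snrpd3, Snrpe and Snrpf below their young mean on the log2 scale, and none passed the threshold. Snrpg was at 21.34, 14.63 and 72.42 TPM in old libraries, and in the young group it was at 152.61 TPM in library 3 and at 0 in the other libraries. Such values bring in the processed copies of these genes. A processed pseudogene is an mRNA copied back into the genome, and short reads from it and from its parent can be hard to tell apart. Searched with stretches of 31 bases, 12 of the 36 members had at least 1 annotated pseudogene that shares 20% or more of its stretches with them. Of the 24 pseudogenes found, 16 were in the bulk table and 8 of these had a mean of at least 1 TPM. A match is not always a processed copy. Gm10042, of 78 bases, shared 20.8% each with Snrpc, Sympk and Pabpc1, is not annotated as processed, and was the sole match of Sympk.

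The copy of Snrpg, Gm8186 on chromosome 17, is 231 bases long, and 100% of its stretches occur in Snrpg. It was listed above Snrpg in all 8 libraries. Its values were 164.73, 219.60 and 176.96 TPM in old libraries and 183.62, 222.21 and 203.00 TPM in young libraries, so it was present in the young libraries that listed Snrpg at 0. Summed with Gm8186, Snrpg was at 186.07, 234.23 and 249.38 TPM in old libraries and at 183.62, 222.21 and 355.61 TPM in young libraries, and the ages overlapped. The copy of Nudt21, Gm7488 on chromosome 3, is 684 bases long and also shares 100% of its stretches with its parent. It stood above Nudt21 in 7 of the 8 libraries. Snrpe, Snrpf, Luc7l2, Pabpc1 and Hnrnpc had copies with a mean of at least 1 TPM as well, and those of Snrpe and Snrpf were above their parents in 4 and 6 libraries. The copies of Luc7l2, Pabpc1 and Hnrnpc stayed below their parents in all 8. How the authors' counting divided such reads is not given in the sources used here, and the values of Snrpg, Snrpe, Snrpf and Nudt21 are uncertain for that reason. Snrpf also overlaps the coding gene Ccdc38, and 85.4% of its 75-base stretches occur in other annotated transcripts. TPM is divided by length, so the same reads weigh more on a short copy. This search was chosen after the values of Snrpg were seen.

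**Figure D3:**
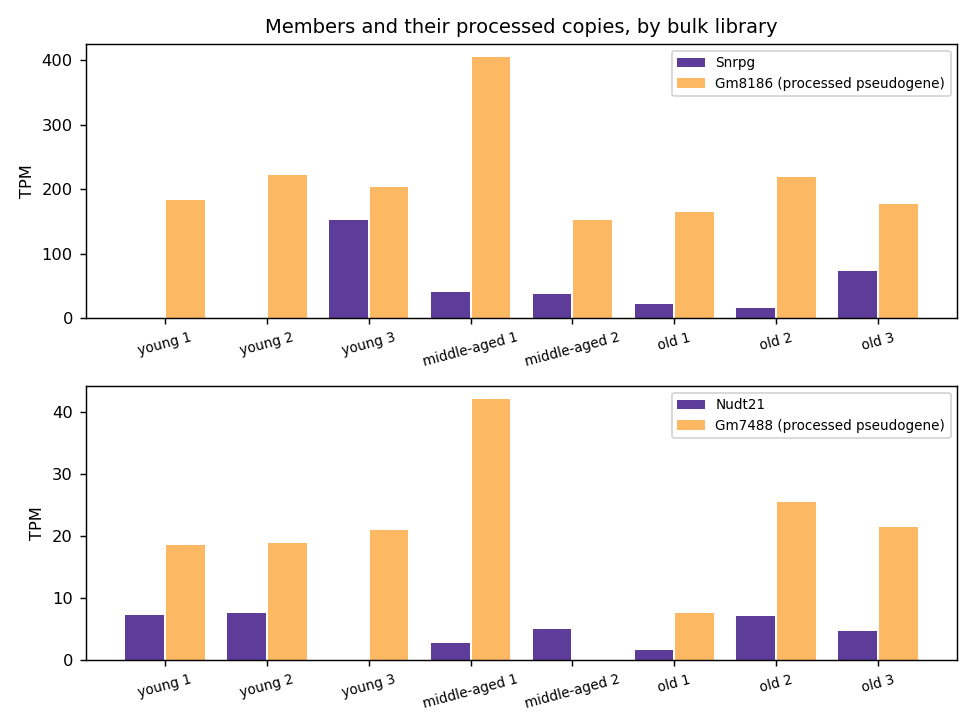
TPM of Snrpg and its processed pseudogene Gm8186 (top) and of Nudt21 and its processed pseudogene Gm7488 (bottom) in each bulk library, ages from young to old; each bar is 1 library. Gm8186 is above Snrpg in all 8 libraries, and Gm7488 is above Nudt21 in 7 of 8.

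The LUC7-like genes, whose products help U1 choose between 5′ splice sites, overlapped between old and young. Luc7l3 was at 116.92, 236.42 and 189.58 TPM in old libraries and at 195.57, 152.58 and 241.29 TPM in young libraries, with a log2 difference of -0.15 (SE 0.42, adjusted p = 0.987, limma). The middle-aged libraries had 256.42 and 96.27 TPM, the highest and the lowest of all 8. Luc7l2 lay between 322 and 415 TPM in old libraries and between 347 and 500.8 TPM in young libraries. Luc7l lay between 28.5 and 60.2 TPM in old and between 33.8 and 55.03 TPM in young. All 3 had a lower mean log2 level in old, by 0.11 to 0.24, and none passed the threshold.

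CPSF holds the endonuclease (Cpsf3), the subunits that read the hexamer (Cpsf4 and Wdr33), and Cpsf1, Cpsf2 and Fip1l1. Fip1l1, which recruits the poly(A) polymerase, was the most abundant, with 61.3 to 105 TPM in old libraries and 38.4 to 138 TPM in young libraries. The other 5 had means over the 8 libraries of 4.22 to 11.9 TPM. Cpsf4 was at 7.54 TPM in old library 1 and at 0 in the other old libraries, and at 12.43, 9.42 and 3.72 TPM in young libraries. The ages overlapped for all 6 subunits, and 4 were higher and 2 lower in old.

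The signal that CPSF reads was also looked for in the members' own transcripts. Within the last 40 bases of the main annotated transcript, 21 of the 36 members (58.3%) held AATAAA and 3 more (8.3%) held ATTAAA without it, beside 56.8% and 12.4% of 21831 coding genes. The transcript strand alone was searched. Within the last 100 bases, TGTA occurred in 55.6% of members and 50.2% of coding genes. More than 1 annotated 3′ end, over 24 bases apart, was found for 22 members (61.1%), beside 39.2% of coding genes. The ends of 6 members on which the results turn are shown because they carry the hexamer that CPSF reads (capitals); each is 30 bases of the GENCODE vM21 transcript, 5′ to 3′, with T for U, on GRCm38.
Snrnp70 (chr7:45376465-45376494, minus strand): cttggatttaaaAATAAAattaattttctg
Luc7l2 (chr6:38609435-38609464, plus strand): agcagtttctgcATTAAAgatctaattacc
Nudt21 (chr8:94015500-94015529, minus strand): cactgttatttcAATAAAaatatttaaaac
Cstf2 (chrX:134086790-134086819, plus strand): ctgtcgtggattcAATAAAtattttaaaag
Pcf11 (chr7:92643555-92643584, minus strand): tacatatacagtATTAAAacttgtgatttt
Pabpc1 (chr15:36595664-36595693, minus strand): aattcttgctttAATAAAaattccttaaac
The ATTAAA form was held by Luc7l2, Pcf11 and Snrpa, whose spread within an age was 0.21, 0.09 and 1.78 (SD of log2(TPM + 1)). A match is a description of the letters in the window and no test of use.

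CFIm joins Nudt21, which binds UGUA, to Cpsf6 or Cpsf7. Nudt21 was at 1.52, 7.16 and 4.66 TPM in old libraries, and at 7.30 and 7.64 TPM in young libraries 1 and 2 and at 0 in young library 3. The middle-aged libraries had 2.80 and 4.98 TPM. Cpsf6 was at 27.19, 45.21 and 35.58 TPM in old libraries and at 16.57, 70.09 and 38.25 TPM in young libraries, with a log2 difference of -0.01 (95% interval -1.26 to 1.23, adjusted p = 1, limma). The old libraries lay inside the young range, and the middle-aged libraries had 41.29 and 18.62 TPM. Cpsf7 lay between 23.2 and 55.6 TPM in old and between 29.4 and 37.0 TPM in young libraries.

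In CstF, Cstf2 and its autosomal copy Cstf2t bind the downstream element, and Cstf1 and Cstf3 hold the complex together. Cstf2 was at 18.42, 22.82 and 20.30 TPM in old libraries and at 23.35, 30.49 and 28.01 TPM in young libraries. Every old library lay below every young one. The means were 20.5 ± 2.21 TPM in old and 27.3 ± 3.63 TPM in young libraries (SD, n = 3 each), and the log2 difference was -0.39 (SE 0.47, adjusted p = 0.881, limma). The exact permutation p was again 0.1 (two-sided). Cstf2t, a gene of 1 exon that lies inside Prkg1 at chr19:31082837-31087069 (plus strand, GRCm38), was at 4.34, 9.5 and 22.20 TPM in old libraries and at 6.51, 2.73 and 5.95 TPM in young libraries. Old and young overlapped, and the middle-aged libraries had 10 and 10.65 TPM. The log2 difference of old minus young was 0.91 (SE 0.71, adjusted p = 0.839, limma). Cstf2 made up 80.9%, 70.6% and 47.8% of the summed TPM of Cstf2 and Cstf2t in old libraries and 78.2%, 91.8% and 82.5% in young libraries. Old library 1 lay inside the young range of this share and the other old libraries below it.

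CFIIm consists of Pcf11, which also helps release the polymerase, and the kinase Clp1. Pcf11 was at 54.41, 52.30 and 52.24 TPM in old libraries and at 44.89, 47.43 and 53.36 TPM in young libraries. The ages overlapped, with only young library 3 above any old library, and the log2 difference was 0.13 (SE 0.33, adjusted p = 0.982, limma). Clp1 lay between 3.00 and 14.9 TPM in old libraries and between 0 and 12.2 TPM in young libraries. Sympk, the scaffold on which CPSF and CstF meet, lay between 15.5 and 39.1 TPM in old and between 14.4 and 29.5 TPM in young libraries. Rbbp6 lay between 91.1 and 179 TPM in old and between 136 and 189 TPM in young libraries.

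Of the poly(A) polymerases, Papola was at 63.90, 84.98 and 126.50 TPM in old libraries and at 113.19, 149.60 and 188.32 TPM in young libraries. The groups overlapped, with old library 3 above young library 1, and the middle-aged libraries had 186.30 and 119.63 TPM. The means were 91.8 ± 31.9 TPM in old and 150 ± 37.6 TPM in young libraries (SD, n = 3 each), and the log2 difference was -0.73 (SE 0.37, adjusted p = 0.839, limma). Papolg, the related nuclear polymerase, lay between 1.94 and 6.35 TPM in old and between 5.52 and 11.9 TPM in young libraries, with an adjusted p of 0.839 (limma). Papola made up 95.2% to 97.1% of the pair's sum in old and 93.9% to 95.4% in young libraries.

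Pabpn1 coats the growing tail in the nucleus and restrains the use of early poly(A) sites, and repeat expansions in the human gene cause oculopharyngeal muscular dystrophy. It was at 63.69, 36.47 and 70.39 TPM in old libraries and at 62.86, 31.06 and 10.29 TPM in young libraries, with a log2 difference of 0.97 (SE 0.62, adjusted p = 0.839, limma). The ages overlapped, and without young library 3 the difference was 0.30. The middle-aged libraries had 65.35 and 33.91 TPM. Of the 75-base stretches of the Pabpn1 transcript, the read length of the study, 60.5% also occur in Gm20521, a coding gene that overlaps it. How reads were divided between these genes is not given. Pabpc1 was at 711.04, 729.31 and 940.13 TPM in old libraries and at 813.87, 1188.02 and 809.69 TPM in young libraries, with a log2 difference of -0.23 (SE 0.26, adjusted p = 0.877, limma).

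Elavl1 (HuR) and Hnrnpc bind U-rich stretches of 3′ UTRs and introns. Elavl1 was at 9.95, 15.61 and 6.77 TPM in old libraries and at 11.11, 10 and 9.98 TPM in young libraries. The young libraries lay inside the old range, and the middle-aged libraries had 7.33 and 7.58 TPM. Between old and young the log2 difference was -0.02 (95% interval -1.26 to 1.23, adjusted p = 1, limma). Hnrnpc was at 48, 75.34 and 63.79 TPM in old libraries and at 47.12, 102.25 and 101.58 TPM in young libraries, with a log2 difference of -0.36 (SE 0.44, adjusted p = 0.883, limma). The ages overlapped, and the middle-aged libraries had 101.87 and 49.95 TPM. Cd47 and Set, tied to ELAVL1 in human cells, did not overlap between the ages and did not pass the threshold. Cd47 was at 106.53, 151.02 and 132.47 TPM in old libraries and at 75.62, 65.19 and 86.02 TPM in young libraries, with a log2 difference of 0.77 (SE 0.31, adjusted p = 0.815, limma). Set was at 31.14, 30.66 and 28.68 TPM in old libraries and at 50.78, 59.64 and 69.25 TPM in young libraries, with a log2 difference of -0.96 (SE 0.38, adjusted p = 0.808, limma).

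The wider pathway gave 0 calls in old against young as well. In the limma fit, 0 of the 14 genes tested that assemble the Sm core, 0 of 16 proteins of U2 and the tri-snRNP, 0 of 11 U1-associated splicing factors, 0 of 20 termination and cap factors, 0 of 14 other tail enzymes and tail binders and 0 of 14 other regulators of poly(A) sites passed the threshold. At an unadjusted p under 0.05, the last list held 2 genes, both lower, and the other 5 lists held 0, beside 2.17% of all genes lower and 3.72% higher. Of the 14 regulators, 12 had a lower mean in old, with a median log2 difference of -0.38 beside 0.00 over all genes, of which 45.8% were below 0. The 2 genes were Srsf3, a splicing factor that also acts on poly(A) sites, and Elavl2, a relative of Elavl1. Srsf3 was at 162.31, 193.88 and 175.75 TPM in old libraries and at 282.93, 244.19 and 328.93 TPM in young libraries (log2 difference -0.68, adjusted p = 0.808, limma). Elavl2 was at 1.29, 2.36 and 1.62 TPM in old libraries and at 8.83, 5.58 and 9.12 TPM in young libraries (log2 difference -1.67, adjusted p = 0.819, limma). Of the 14 Sm assembly genes, 11 were lower in old, with a median of -0.53. The termination and cap factors leaned the other way, with 14 higher and 6 lower and a median of 0.10. The remaining lists had 6 higher and 10 lower (U2 and tri-snRNP, median -0.16), 4 higher and 7 lower (U1-associated factors, -0.22) and 4 higher and 10 lower (tail enzymes and binders, -0.30). Clns1a, which chaperones Sm proteins, had the smallest p of the Sm assembly genes, at 14.59, 27.51 and 17.13 TPM in old libraries and 21.10, 85.33 and 40.02 TPM in young libraries (adjusted p = 0.839, limma), where the ages overlapped.

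In middle-aged against young libraries, 0 of 36 members passed the threshold (limma), beside 1 of 22492 genes (0.00445%). At an unadjusted p under 0.05, 0 members were higher, beside 5.50% of all genes, and 2 lower, Cstf2 and Snrpb, beside 2.28%. The median log2 difference of the members was -0.11, beside 0.18 over all genes, with 16 higher and 20 lower, beside 55.2% of all genes above 0 and 40.6% below 0. Without overlap, 2 members were higher, beside 12.6% of all genes, and 5 lower, beside 5.37%. The 2 were Pcf11 and Cstf2t, and the 5 were Pabpc1, Snrpb, Cstf2, Cpsf7 and Elavl1. Markers of other cells also moved in this comparison, with 0 genes of these lists past the threshold. The 10 Schwann cell genes, 9 of them higher, summed to 175 to 338 TPM in middle-aged and 84.7 to 163 TPM in young libraries, the 8 tenocyte genes to 72.5 to 98.5 TPM in middle-aged and 15.2 to 29.1 TPM in young libraries, and the 7 endothelial genes to 34.3 to 76.6 TPM in middle-aged and 11.63 to 15.04 TPM in young libraries. The 10 muscle stem cell markers, 9 of them lower, summed to 1380 to 1702 TPM in middle-aged and 1532 to 1647 TPM in young libraries. The part of these cells in the members' values was not tested. With 2 libraries against 3, the smallest p of an exact two-sided permutation test is 0.2.

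Cstf2 was at 15.53 and 7.28 TPM in middle-aged libraries, below the 23.35 TPM of the lowest young library, with a log2 difference of -1.27 (SE 0.52, adjusted p = 0.591, limma). Its adjusted p ranged from 0.0386 to 0.726 over the alternatives tried (limma), and the lowest came from leaving out middle-aged library 1, which left 1 library in that group. Snrpb, a Sm ring protein that U1 shares with other snRNPs, was at 7.25 and 4.13 TPM in middle-aged libraries and at 9.5, 39.31 and 21.59 TPM in young libraries, with a log2 difference of -1.71 (SE 0.77, adjusted p = 0.626, limma). Old libraries had 7.87, 29.21 and 11.57 TPM of it. Pcf11 was at 72.67 and 67.02 TPM in middle-aged libraries, above the 53.36 TPM of the highest young library, with a log2 difference of 0.52 (SE 0.37, adjusted p = 0.655, limma). Pabpc1 was at 683.34 and 613.78 TPM in middle-aged libraries, below the 809.69 TPM of the lowest young library, with a log2 difference of -0.51 (SE 0.29, adjusted p = 0.626, limma).

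**Figure D4:**
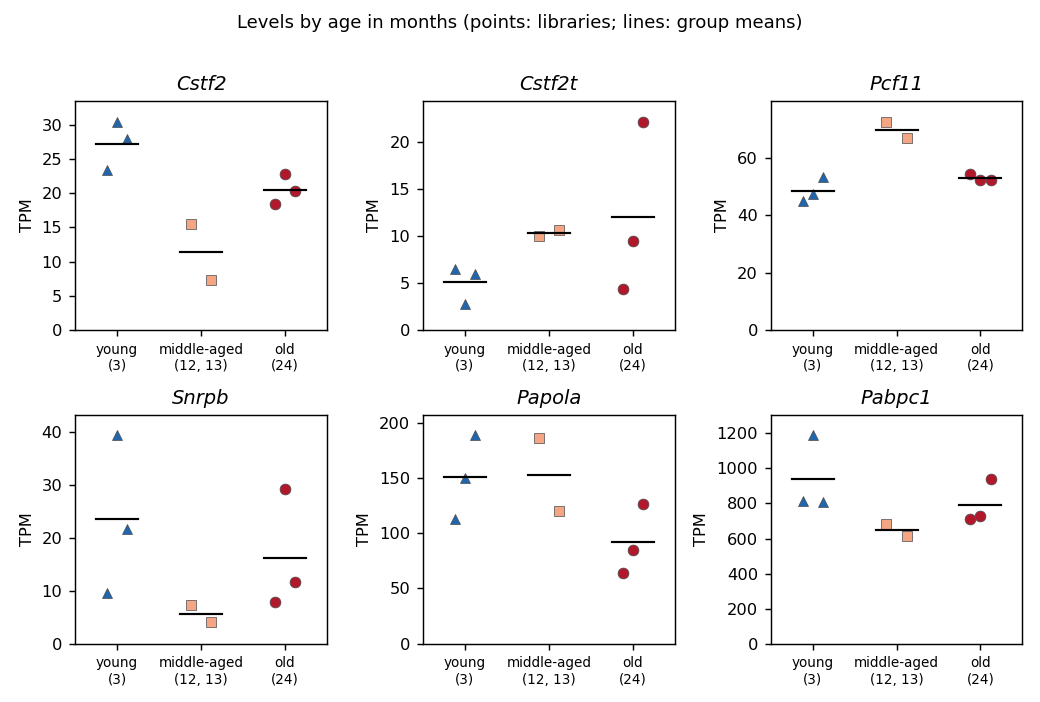
TPM of Cstf2, Cstf2t, Pcf11, Snrpb, Papola and Pabpc1 by age in months; each point is 1 bulk library and each line the mean of its age. Cstf2, Snrpb and Pabpc1 are lowest and Pcf11 highest in the 2 middle-aged libraries, and Papola has its lowest mean in the 3 old ones.

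In old against middle-aged libraries, 0 of 36 members passed the threshold (limma), beside 0 of 22492 genes (0%), and 0 members had an unadjusted p under 0.05, beside 2.34% of all genes higher and 3.85% lower. The median log2 difference of the members was -0.01, beside -0.09 over all genes, with 18 higher and 18 lower, beside 42.4% of all genes above 0 and 53% below 0. Without overlap, 5 members were higher in old, beside 7.15% of all genes, and 2 lower, beside 12.8%. The 5 were Pabpc1, Snrpb, Fip1l1, Cstf2 and Cpsf7, and the 2 were Snrpd3 and Pcf11. This comparison and that of middle-aged against young share the middle-aged libraries. Markers of other cells moved here as well, with 0 of them past the threshold. The 10 Schwann cell genes, all higher in old, summed to 428 to 1342 TPM in old and 175 to 338 TPM in middle-aged libraries. Fibroblast genes summed to 923 to 1427 and 836 to 848 TPM, and lymphocyte genes to 4.44 to 12.17 and 21.25 to 50.9 TPM, in the same order. The sums of the other cell types overlapped. The part of these cells in the members' values was not tested. Cstf2 was at 18.42, 22.82 and 20.30 TPM in old libraries, against 15.53 and 7.28 TPM in middle-aged libraries. Middle-aged library 2, of the 13-month mouse, had the lowest value of all 8 for 10 members, the highest for 0, and 4 members at 0.

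In the wells, the members were seen in part of the cells. A median of 0 members per old well (range 0 to 18) and 10 per young well (range 0 to 19) reached 1 TPM. The wells of the ages differed in the same way for genes at large. Old wells had a median of 64 genes at 1 TPM or more (range 3 to 2950) and young wells of 1854 (range 7 to 3621), and mitochondrially encoded transcripts took a median of 57% of TPM in old wells and 8.6% in young wells. The ages also carried separate sets of library indexes, so age, mouse and index cannot be told apart. With 1 mouse per age there is no test. Intervals of shares are exact Clopper-Pearson 95% intervals and cover counting error between wells only.

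Over all wells, 35 of 36 members were found in a smaller share of old than of young wells, with a median difference of -13.1 percentage points. The exception was Cpsf2, in 1 of 31 old and 2 of 64 young wells. Genes were then kept if found in at least 10% of all 95 wells, 64 of them young. This filter lets in genes found in young wells alone, such as Wdr33 (0 of 31 old and 20 of 64 young wells). Lower shares in old wells are thus partly set by it. Members that passed numbered 23, and their median was -24.6 points, beside -19.9 points over the 3852 genes that passed the same filter. Of those genes, 99.2% had a smaller share in old wells and 0.831% a larger one. The intervals did not overlap for 11 members, all lower in old and all among the 23, beside 34.9% of those genes, and for 0 higher in old, beside 0%. The mean of log2(TPM + 1) was lower in old by at least 1 for 12 members, all among the 23, beside 48.4% of those genes, and higher by at least 1 for 0, beside 0.0260%. The 12 were Snrpb, Snrpd1, Snrpd2, Snrpe, Snrpg, Luc7l, Luc7l2, Luc7l3, Wdr33, Pcf11, Pabpc1 and Hnrnpc. The 11 with separate intervals were Snrnp70, Snrpb, Snrpd1, Snrpe, Snrpf, Snrpg, Luc7l2, Wdr33, Pcf11, Pabpc1 and Hnrnpc. Among wells with at least 1000 genes, 7 old and 54 young, the median difference was -1.2 points, 17 members were higher and 19 lower in old, and no member's intervals were apart. A median of 9 members per old well and 11.5 per young well was found there. The same counts over all genes were not made for these wells. With 7 old wells the intervals are wide, as for Hnrnpc in old wells (9.9% to 81.6%). The counts in these wells are therefore not read as a trait of the members.

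Hnrnpc was found in 4 of 31 old wells (12.9%, interval 3.6% to 29.8%) and 43 of 64 young wells (67.2%, 54.3% to 78.4%), and among wells with at least 1000 genes in 3 of 7 old and 43 of 54 young wells. Pabpc1, the most widely found member, was in 29% of old wells (14.2% to 48%) and 75.0% of young wells (62.6% to 85.0%). In wells with at least 1000 genes its shares were 71.4% in old (29% to 96.3%) and 87.0% in young (75.1% to 94.6%). After Pabpc1 and Hnrnpc in young wells came Snrpg with 16.1% of old and 64.1% of young wells, Luc7l2 with 19.4% of old and 59.4% of young wells, and Snrpb with 16.1% of old and 51.6% of young wells. The members found least in young wells were Cpsf4 in 1.6%, Cpsf2 in 3.1%, and Cstf1, Cstf2t and Papolg in 6.2% each. The members in 0 of 31 old wells numbered 8, which allows a share of up to 9.68% by the limit of 3 counts, while the exact interval of 0 of 31 reaches 11.2%. They were Cpsf1, Cpsf4, Wdr33, Cstf1, Cstf2, Cstf2t, Sympk and Papolg. Both limits treat the 31 old wells alike, though only 7 of them had at least 1000 genes. The share of all genes absent from old wells was not counted. Wdr33 was in 20 of 64 young wells (31.2%, 20.2% to 44.1%).

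**Figure D5:**
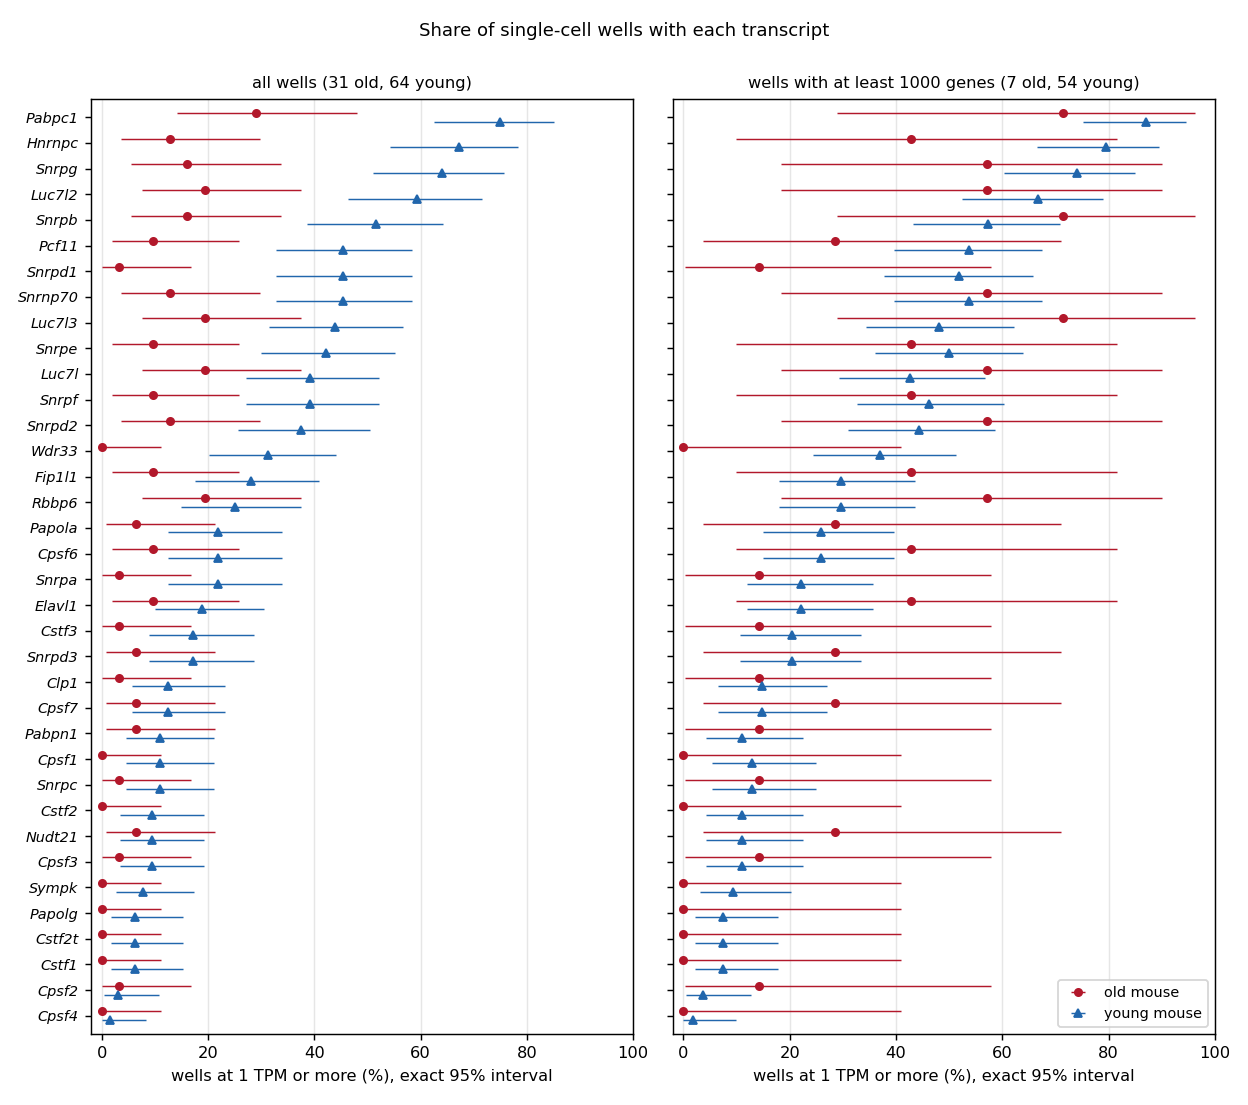
Percent of wells with each of the 36 transcripts at 1 TPM or more in the old and the young mouse, with exact 95% intervals, over all wells (left) and over wells with at least 1000 genes (right). The old points lie left of the young ones for 35 of 36 members over all wells. On the right the intervals, wide for the 7 old wells, overlap for every member.

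The members did not stand in the same order in young wells as in young bulk libraries. The tables were normalized separately and the formats differ, so levels are set side by side with no test. Across the 36, the bulk level and the share of young wells had a Spearman's rho of 0.64, as a description. The 7 Sm genes summed to 235 TPM as a mean over young wells and to 146 TPM as a mean over young bulk libraries, which was 31.3% of all members' TPM in wells and 5.5% in bulk. The young bulk sums were 54.76, 94.24 and 288.78 TPM, so young library 3 held most of that mean. Both sums leave out the processed copies. Gm8186, which may share reads with Snrpg, was at 183.62, 222.21 and 203.00 TPM in young bulk libraries. It was found in 42 of 64 young wells. Copies of Snrpd1 (Gm14277), Snrpe (Snrpert) and Snrpf (Gm13092) were found in 24, 23 and 29 of these wells. Pabpc1 was at 86.1 TPM in young wells and 937 TPM in young bulk libraries, and Rbbp6 was at 9.52 TPM in young wells and 165 TPM in young bulk libraries. Snrpd2 ranked 6 of 36 in young wells and last in young bulk libraries, where all values were 0. Snrnp70 ranked 26 in young wells, with 4.79 TPM, and 8 in young bulk libraries, with 62.5 TPM.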

How the data were processed

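The data are RNA sequencing of mouse muscle stem cells, 8 bulk libraries and 95 single-cell wells. The deposited values are TPM made by the authors, per the labels, and library totals lay between 999999.2 and 1000000.9. STAR and mm10 are named in the submitters' processing notes; version, annotation, strandedness and counting tool are absent from the labels and headers. Reads were single-end of 75 bases, per the labels' protocols, which repeat the bulk protocol for the wells. The labels name a nominal read number per sample, but TPM are shares and the depth of each library is unknown, and no count test or detection limit applies to bulk values. Their precision rests on the spread between 2 or 3 libraries.

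Groups followed the labels. For bulk, limma 3.58.1 in R 4.3.3 took log2(TPM + 1) of 22492 genes whose mean reached 1 TPM, with all 8 libraries in 1 fit, a mean per age, a variance trend, two-sided tests and Benjamini-Hochberg adjustment over all genes (threshold 0.05). The fold scale understates changes of low genes. The fit was also run on simulated data with known differences, as a check of the code and not of its power in these data. Same-numbered libraries of different ages did not pair: their deviations correlated at -0.012 to 0.005. No columns were identical. Wells were described by shares at 1 TPM or more. Sequences, transcript ends and pseudogenes came from GENCODE vM21 (GRCm38, the mm10 assembly). Tables and figures used pandas 2.3.3, numpy 2.4.6, matplotlib 3.10.9 and scipy 1.17.1 under Python 3.11.15.

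The members and gene lists were chosen with earlier results of these data known. All 36 members are named. Values in every bulk library were given for 14 members set by the rule (Snrnp70, Snrpa, Snrpc, Luc7l3, Nudt21, Cpsf6, Cstf2, Cstf2t, Pcf11, Papola, Pabpn1, Pabpc1, Elavl1 and Hnrnpc) and for members that did not overlap or had an unadjusted p under 0.05 in old against young. Of other genes, Cd47, Set and Pax7 were always named, and up to 3 per pathway list with the smallest p. Values of Snrpb, Snrpg and Cpsf4 and the pseudogene copies were chosen after they were seen. Alternatives covered the pseudocount, the filter, scaling, the groups fitted, the variance trend, a replicate block, each library left out, and for wells the level that counts as found, the wells used and scaling.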

Additional observations from a re-analysis of the deposited data

How the results depend on the processing

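The number of members past the threshold was 0 in all 3 bulk comparisons under every alternative, apart from 1 (Cstf2, middle-aged against young, log2 difference -1.76, adjusted p = 0.0386, limma) when middle-aged library 1 was left out. With each library left out in turn, that count ranged from 0 to 1. A group of 1 library is assumed there to vary like the others. The count of all genes called was 0 in old against young throughout. In middle-aged against young it was 7 with a pseudocount of 0.1, 2 with a mean of at least 5 TPM, 5 with quantile normalization and 12 with no variance trend. It was 0 with a pseudocount of 5, no filter, rescaling without mitochondrial genes, median-ratio scaling, only the 2 groups fitted or the replicate block. In old against middle-aged it was 6 with a pseudocount of 0.1 and 1 with quantile normalization. With each library left out, these counts ranged from 0 to 859 and from 0 to 792. They were 600 and 580 without middle-aged library 1 and 859 and 792 without middle-aged library 2, and the cause was not tested. The replicate block changed no call of a member, and the block gave medians of the members of -0.03, -0.19 and 0.06 in the 3 comparisons.

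With a library left out, the members' medians ranged from -0.18 to 0.09 (old against young), -0.25 to 0.21 (middle-aged against young) and -0.23 to 0.30 (old against middle-aged). Quantile normalization set the median of all genes in middle-aged against young to 0.00 in place of 0.18, and the members' median to -0.17. Members without overlap numbered 2 to 8 (old against young), 7 to 17 (middle-aged against young) and 7 to 16 (old against middle-aged) with a library left out. Fewer libraries overlap less, and the shares over all genes are not given for these settings. The counts are therefore not read as a trait of the members. Among the 26 members above 0 throughout, 1 was without overlap in old against young, since Snrpd2 is not among them. The share over all genes above 0 throughout is not given either, and this count too is not read as a trait of the members. Of 17 log2 differences of single members given, 5 turned direction somewhere. Cpsf6 was 0.01 after rescaling and 0.04 after quantile normalization, and Elavl1 was 0.01 after quantile normalization. With a library left out, Cpsf6 ranged from -0.54 to 0.47, Elavl1 from -0.30 to 0.25, Snrpa from -0.58 to 0.36, Snrpc from -0.56 to 0.98 and Luc7l3 from -0.37 to 0.13. The libraries that turned them were young 2 and 3 and old 1 (Cpsf6), young 1 and old 3 (Elavl1), old 1 (Snrpa), young 1 and old 2 (Snrpc), and young 3 and old 1 (Luc7l3). Without turning, Snrnp70 ranged from 0.02 to 0.62, Cstf2t from 0.37 to 1.43, Pabpn1 from 0.30 to 1.55, Pcf11 from 0.07 to 0.20, Hnrnpc from -0.72 to -0.17, Papola from -0.99 to -0.50, Cstf2 from -0.50 to -0.31 and Pabpc1 from -0.36 to -0.04. In wells, the members' median difference was -1.2 points among wells with at least 1000 genes, and -16.2 to -9.2 points under the other alternatives.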
